A study of Oryza sativa with 3 samples.

Results

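The genes described here are rice regulators of growth and organ identity, chosen by name: every gene whose symbol or synonym in the gene table is SPL, GRF, GIF, HOX, WOX or OSH followed by a number, with or without the prefix Os. The rule itself uses no measured value. It took 71 genes, all through a synonym: 18 SPL, 10 GRF, 1 GIF, 26 HOX, 8 WOX and 8 OSH genes. Of these, 63 had a probe set of their own on the array, among 17905 genes listed for it. The other 8 had none: SPL5, SPL10, SPL11 of chromosome 6, SPL13, HOX3, WOX5, OSH10 and OSH15.

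Expression was measured in leaves of rice plants aged 6 weeks with 1 Affymetrix array per sample. The control was wild type Guichao2, an indica cultivar, and the other 2 samples were OsEBS transgenic plants in the same Guichao2 background, the lines B10201 and B10301. Every sample came from 10 plants, raised without treatment in a greenhouse at 28 °C, lit for 14 h and dark for 10 h a day. The sources used here do not give the promoter of the transgene, and the level of OsEBS was not analysed here. The design asks which leaf transcripts differ between plants with and without the transgene.

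SPL proteins (SQUAMOSA promoter-binding-like) are transcription factors of the plant phase change, of tillering and of panicle branching, and many of their transcripts are cut under the guidance of miR156. GRF proteins (growth-regulating factors) promote cell proliferation in young leaves together with GIF co-activators and are held down by miR396. HOX symbols in rice denote HD-Zip proteins, in which a homeodomain precedes a leucine zipper. Class I and class II of these are known for water, abscisic acid and shade responses, and class III, restrained by miR166, for leaf polarity and vascular tissue. WOX proteins act in stem cell niches and leaf margins, and OSH proteins are KNOX homeodomain proteins, of which class I keeps the shoot meristem undifferentiated and is normally silent in leaf blades.

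Values are log2 signals, so a difference of 1 is 2-fold. A floor was set at the median of all signals, 5.50, and a gene was counted as measured when the mean of its 3 arrays lay above it. Log2 ratios are each line minus the control, and where 3 signals stand in a row without labels they are those of the control, B10201 and B10301 in that order. Ratios were taken with signals below the floor raised to it. With the control at the floor, a fold is a lower bound. In bulk tissue, fewer cells of a type and less RNA per cell cannot be told apart.

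Symbols shared between unrelated genes had to be separated first. SPL is also a symbol for spotted leaf mutants, and 3 of the 18 SPL genes are of that kind. SPL7 of chromosome 5 has the synonym HSFA4D, a heat stress transcription factor, and is written SPL7/HSFA4D here. SPL11 of chromosome 12 is the spotted leaf gene of a ubiquitin ligase that restrains cell death. SPL18 has the synonym AT1, an acyltransferase symbol, and is written SPL18/AT1. The only gene taken as GIF, GIF1, has the synonym CIN2, a cell wall invertase of grain filling, so no GIF co-activator of the GRF proteins is among the genes described. The symbol GRF3 is listed for 2 genes, LOC4336879, called GRF3 here, and LOC4339928, which is also GRF5 and is called so here.

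**Figure D1:**
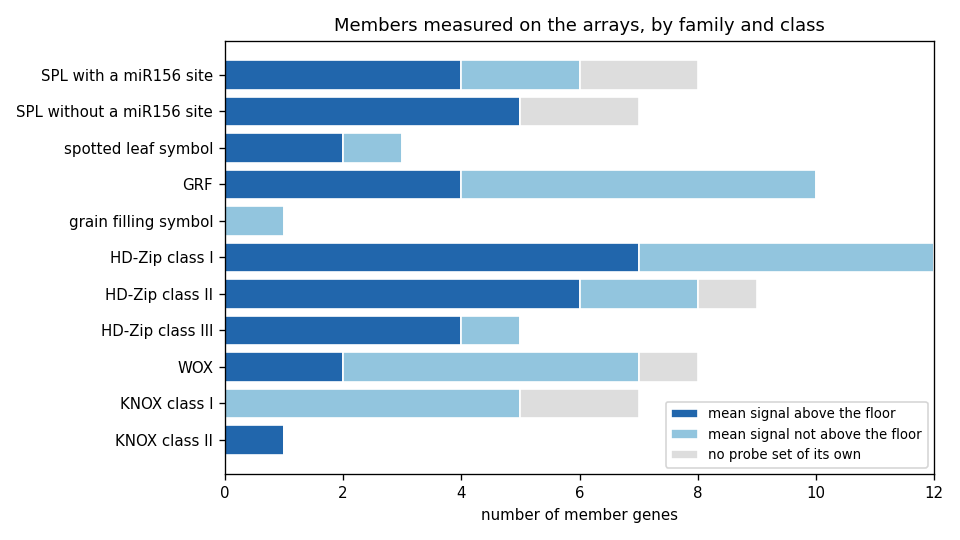
Number of member genes (horizontal axis) in each family or class, split by whether the mean of the 3 arrays lay above the floor, did not, or the gene had no probe set of its own. All 5 class I KNOX genes with a probe set lay below the floor, while 5 of 5 SPL genes without a miR156 site lay above it.

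Of the 63 genes with a probe set, 35 were measured and 28 were not above the floor (55.6% measured). Over all genes of the array the share was 80.4%. SPL genes were measured most often among these families, 11 of 14, followed by HOX with 17 of 25, GRF with 4 of 10, WOX with 2 of 7 and OSH with 1 of 6. The number above the floor was alike on the 3 arrays, with 35 genes (control), 38 (B10201) and 35 (B10301).

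Class I KNOX genes were below the floor on every array. OSH1, the meristem gene, had log2 signals of 2.42 (control), 0.80 (B10201) and 2.84 (B10301). OSH71, also called Oskn2, had 0.79, 3.26 and 2.04. OSH3, OSH6 and OSH43 lay at or under 4.63 on all arrays by their brightest probe sets, and another probe set of OSH43 read 4.81 in B10301. OSH45, of class II, which is expressed in differentiated organs, was well above the floor with 11.85, 11.91 and 11.93. Its log2 ratio of 0.07 ± 0.01 (SD over both lines, n = 2) was near 0.

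Several genes known from panicle and grain genetics were also not measurable in these leaves. SPL14, known as IPA1 for ideal plant architecture, had log2 signals of 2.98 (control), 1.02 (B10201) and 4.76 (B10301), all below the floor. SPL16, a gene of grain width, was above the floor in the control (6.26) and B10201 (5.63) but not in B10301 (3.95), and its mean stayed under the floor. GRF4, a gene of grain size and nitrogen use, had 4.99, 4.37 and 5.88, and GRF6 had 5.07, 5.43 and 2.99. GIF1/CIN2 was at 1.03, 2.49 and 0.84. No direction was read for any of them.

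Of the 7 WOX genes with a probe set, 5 had a brightest probe set below the floor on every array. WOX11, which activates crown root emergence, had log2 signals of 2.19 (control), 5.27 (B10201) and 5.31 (B10301), so both lines stood above the control but under the floor. WOX4, of the shoot meristem and vasculature, had 1.79, 4.98 and 2.34. WOX6 had 5.42 in the control and 2.68 and 1.91 in the lines. In the HOX family, HOX21 (1.49, 5.60 and 5.10) and HOX29 of class III (3.79, 5.82 and 5.47) were above the floor in B10201 alone, and HOX11 (6.17, 5.91 and 4.01) in the control and B10201. HOX12, which acts in panicle emergence through gibberellin breakdown, was under the floor at 4.86, 2.33 and 1.98.

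**Figure D2:**
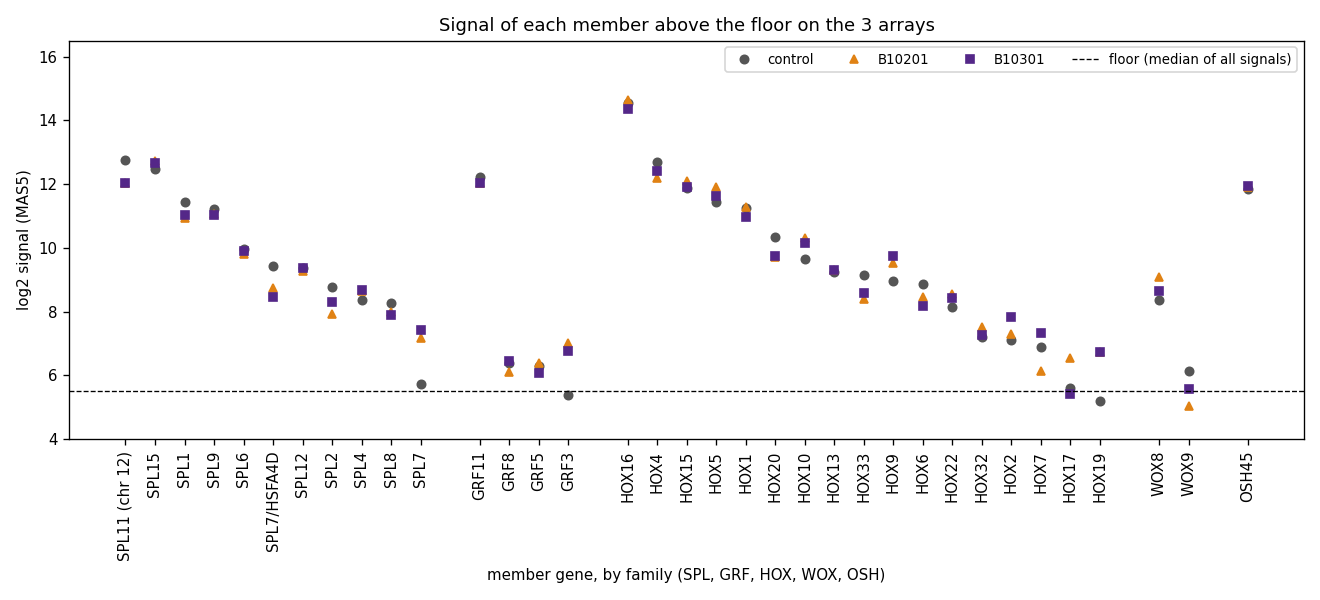
Log2 signal (vertical axis) of the 35 measured genes on the control, B10201 and B10301 arrays, each point 1 array, ordered within families by the control signal. SPL7, GRF3 and HOX19 have both lines clearly above a control near the dashed floor, and most other genes have 3 points close together.

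Between the transgenic lines and the control, the 35 measured genes split evenly. Signals were higher in both lines for 15 genes and lower in both for 14, or 42.9% and 40.0%, beside 37.8% and 41.6% of all 14397 measured genes. Their median log2 ratio was 0.06 in B10201 and -0.01 in B10301, beside -0.02 and -0.01 over all genes. The median size of the average log2 ratio was 0.35 for the 35 genes and 0.29 for all genes. Both lines were set against the same control array, so their ratios are not independent.

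No gene passed limma's test after Benjamini-Hochberg adjustment over all probe sets: 0 of 35 genes described and 0.0% of all 26475 probe sets were called. The lowest adjusted p among the 35 was 0.20. At an unadjusted limma p under 0.05 there were 9 of them (25.7%), 5 higher and 4 lower, beside 20.2% of all genes. Without GRF3 and HOX19, whose control lay below the floor, there were 7 of 33 (21.2%). The 20.2% of all genes still includes genes with a control below the floor. Higher and lower below describe measured signals and are not calls.

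At least 2-fold higher in both lines were SPL7, GRF3 and HOX19, 3 of 35 (8.57%) beside 2.0% of all genes. None was at least 2-fold lower in both, beside 2.61% of all genes. The control signal was just above the floor for SPL7 and below it for GRF3 and HOX19, which entered the measured set through the lines alone. With a floor at the 75th percentile of all signals none of the 3 was left.

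**Figure D3:**
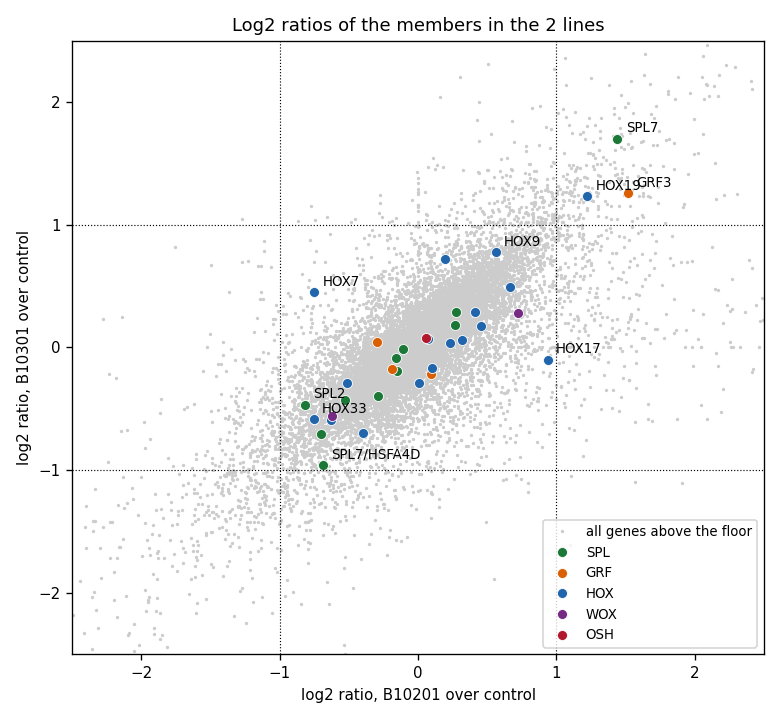
Log2 ratio over the control in B10201 (horizontal axis) and B10301 (vertical axis) for the 35 genes, coloured by family, over all 14397 measured genes in grey. Genes beyond 2.5 on either axis are outside the frame, and dotted lines mark 2-fold. SPL7, GRF3 and HOX19 lie beyond 2-fold higher in both lines, and HOX7 and HOX17 lie away from the diagonal.

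Among SPL genes, most had a slightly lower signal in the transgenic lines, while SPL7, a miR156-targeted gene of tillering, was higher. SPL7 had log2 signals of 5.72 (control), 7.16 (B10201) and 7.42 (B10301). Both lines lay above the control, which was 0.21 above the floor. The average log2 ratio was 1.57 ± 0.18 (SD over both lines, n = 2), or 2.97-fold, with an unadjusted limma p of 0.015 and an adjusted p of 0.23.

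The gene that shares its symbol went the other way. SPL7/HSFA4D had log2 signals of 9.42 (control), 8.73 (B10201) and 8.46 (B10301), with an average ratio of -0.82 ± 0.19 (SD over both lines, n = 2). SPL11 of chromosome 12 had 12.74, 12.04 and 12.04. Its ratio of -0.70 was nearly equal in the lines and had the lowest adjusted p of the 35 genes, 0.20 in limma. Both spotted leaf genes that were measured were thus lower in both lines, beside 41.6% of all genes, and SPL18/AT1 was below the floor. These genes share a symbol and not a family. For SPL11 of chromosome 12, the B10301 signal rests on the row correction described below.

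Of the 11 SPL genes measured, 8 (72.7%) were lower in both lines and 3 higher, beside 41.6% lower over all genes. SPL4 stands among the 3 higher only through its brightest probe set, and its mean log2 ratio was -0.39 with probe sets averaged. Without the spotted leaf genes, 6 of 9 were lower. The median log2 ratio of the 9 was -0.15 in B10201 and -0.08 in B10301, so most of these differences were small.

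SPL genes that carry a miR156 site and were measured are SPL2, SPL4, SPL7 and SPL12, and they had no common direction. SPL2 had log2 signals of 8.76 (control), 7.94 (B10201) and 8.29 (B10301), an average ratio of -0.64 ± 0.25 (SD over both lines, n = 2). SPL12, at 9.38, 9.27 and 9.37, was nearly level. For SPL4 the direction depended on the probe set.

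The SPL genes without a miR156 site had narrower differences. SPL1 was lower, at 11.45 (control), 10.93 (B10201) and 11.03 (B10301), with an average ratio of -0.48 ± 0.07 (SD over both lines, n = 2) and an unadjusted limma p of 0.023. SPL8, also LG1, the gene that forms the ligule between blade and sheath, had 8.29, 7.996 and 7.89. Both lines lay under the control for these genes. SPL9, a regulator of copper-responsive genes, had an average ratio of -0.17 ± 0.03 and SPL6, which restrains the stress response of the endoplasmic reticulum, -0.12 ± 0.06. SPL15 was the only one of these 5 that was higher, at 12.47 (control), 12.73 (B10201) and 12.65 (B10301).

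Of the GRF genes, GRF3 was higher in both lines and the other 3 measured were near the control. GRF3, a growth-regulating factor that binds the promoter of the KNOX gene Oskn2, had log2 signals of 5.38 (control), 7.02 (B10201) and 6.76 (B10301). The control lay below the floor and both lines above it, so the difference was at least 2.62-fold, with an adjusted limma p of 0.24. Oskn2, listed as OSH71, was below the floor on all arrays.

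GRF11 had the highest agreement between the lines in this family, with 12.22 (control), 12.03 (B10201) and 12.04 (B10301), a log2 ratio of -0.18 ± 0.01 (SD over both lines, n = 2). GRF5 (6.30, 6.39 and 6.09) and GRF8 (6.40, 6.10 and 6.44) had the control between the lines. The family's median log2 ratio was -0.05 in B10201 and -0.06 in B10301. GRF1, GRF7, GRF10 and GRF12 were below the floor on every array.

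The HD-Zip genes of class III, the leaf polarity class, were measured for 4 of 5 members. Of the 4, 3 were higher in both lines and 1 lower, beside 37.8% and 41.6% of all genes, and 4 genes are too few to compare with these shares. HOX9 had log2 signals of 8.97 (control), 9.53 (B10201) and 9.74 (B10301), an average ratio of 0.67 ± 0.15 (SD over both lines, n = 2) with an unadjusted limma p of 0.035. HOX10 had 9.66, 10.32 and 10.15, a ratio of 0.58 ± 0.12 with an unadjusted limma p of 0.030. For both, each line exceeded the control.

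HOX32 was higher by little, with 7.21 (control), 7.53 (B10201) and 7.27 (B10301). HOX33, whose loss is known to hasten leaf senescence, was lower: 9.16 (control), 8.41 (B10201) and 8.57 (B10301), with an average ratio of -0.67 ± 0.12 (SD over both lines, n = 2) and an unadjusted limma p of 0.051. HOX9 and HOX33 thus differed from the control by the same 1.59-fold in opposite directions. The adjusted p of HOX9, HOX10 and HOX33 lay between 0.26 and 0.30 in limma.

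In class I, linked to water stress and growth, the directions were mixed, with 3 of 7 measured genes higher in both lines and 3 lower in both. HOX20 was lower on both of its probe sets, and the brighter one, an x_at probe set, had log2 signals of 10.34 (control), 9.71 (B10201) and 9.75 (B10301). Its average log2 ratio was -0.61 ± 0.03 (SD over both lines, n = 2), with an unadjusted limma p of 0.018. HOX6 (8.87, 8.47 and 8.17) and HOX4, which is known to shorten plants when overexpressed (12.69, 12.18 and 12.40), were also lower in both lines.

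HOX22, an abscisic acid and drought response gene, was higher in both lines with 8.15 (control), 8.57 (B10201) and 8.44 (B10301). HOX5 had 11.44, 11.90 and 11.62. HOX13 was level at 9.25, 9.32 and 9.31, and HOX16, with the highest mean signal of its 3 probe sets at 14.53, 14.63 and 14.37, had the control between the lines. The largest of these, HOX22, had an average ratio of 0.35 ± 0.09 (SD over both lines, n = 2).

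In class II, known for auxin and shade responses, 3 of the 6 measured genes were higher in both lines, 0 lower and 3 neither. Over all genes 37.8% were higher and 41.6% lower. The higher ones include HOX19, which entered the measured set through the lines alone. HOX19 had log2 signals of 5.18 in the control and 6.73 and 6.74 in the lines, at least 2.34-fold higher, with an adjusted limma p of 0.25. Of its 3 probe sets, 1 was above the floor, an x_at probe set of the kind that may bind related transcripts. HOX15, measured by an s_at probe set of the same concern, had 11.87, 12.10 and 11.91.

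HOX2 was higher in both lines, at 7.11 (control), 7.30 (B10201) and 7.83 (B10301). Its neighbour on chromosome 6 with no other coding gene between them, HOX28, was below the floor on all arrays (2.32, 5.05 and 1.29). HOX1, a regulator of vascular development and auxin response, had 11.26, 11.27 and 10.97. Over the 17 HOX genes measured, 9 (52.9%) were higher in both lines, 4 lower and 4 neither, beside 37.8% higher over all genes. The 9 include HOX19, which entered through the lines alone. The median log2 ratio of the 17 was 0.19 in B10201 and 0.06 in B10301. Averaged over the lines it was 0.13, and -0.012 with arrays centred on their median, which moved that of all genes from -0.02 to -0.16.

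Both measured WOX genes differed in direction. WOX8, also called WOX13 and known for drought tolerance, had log2 signals of 8.38 (control), 9.10 (B10201) and 8.65 (B10301), an average ratio of 0.50 ± 0.32 (SD over both lines, n = 2). WOX9, also QHB, a gene of the root quiescent centre, had 6.13, 5.05 and 5.57, below the floor in B10201 and just above it in B10301. It was lower in both lines, by at least 1.54-fold in B10201. It entered the measured set through its control alone, so this direction is not independent of the filter. Neither WOX gene had an unadjusted limma p under 0.05.

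Differences between the lines were small for most genes, with 2 of 35 (5.71%) at least 2-fold apart, beside 4.15% of all genes. HOX7 had log2 signals of 6.87 (control), 6.12 (B10201) and 7.32 (B10301) on its brightest probe set, and the control lay between the lines. HOX17, on a single x_at probe set, had 5.61, 6.55 and 5.42, higher in B10201 alone, and was near the floor elsewhere. HOX2, WOX8 and SPL2 followed, with differences between the lines (B10301 minus B10201) of 0.53, -0.45 and 0.35 on the log2 scale. The median difference in size was 0.19 for the 35 genes and 0.18 for all genes.

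**Figure D4:**
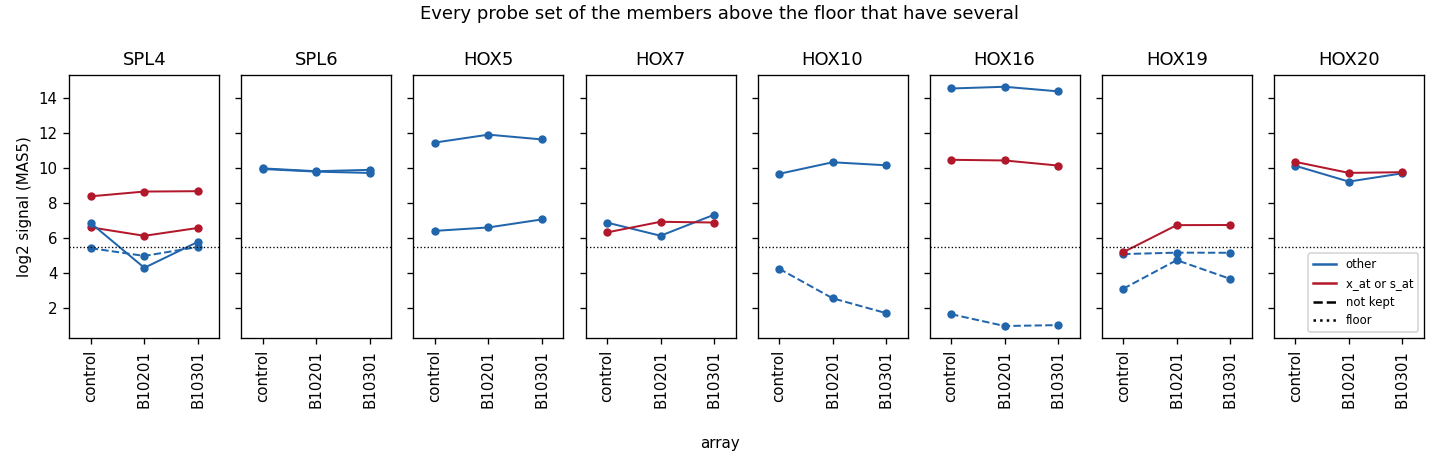
Log2 signal (vertical axis) of every probe set of the 8 measured genes that have several, on the 3 arrays (horizontal axis). Lines join values of 1 probe set, red marks x_at and s_at probe sets, dashed lines those not above the dotted floor. Probe sets of SPL6 and HOX20 run together, and those of SPL4 and HOX7 cross.

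Probe sets of the same gene did not always run together, and for SPL4 they set the direction. The brightest of its 4, an x_at probe set, had log2 signals of 8.37 (control), 8.65 (B10201) and 8.67 (B10301). Another, without that suffix, had 6.85, 4.29 and 5.78, lower in both lines by floored log2 ratios of -1.34 and -1.07. The mean log2 ratio over the 3 probe sets above the floor was -0.39, so no direction is given for SPL4.

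HOX7 showed the same conflict, with 6.31 (control), 6.92 (B10201) and 6.88 (B10301) on its x_at probe set, against the opposed lines on the other. HOX10 rested on 1 of 2 probe sets, the other being below the floor (4.24, 2.55 and 1.70). SPL6, HOX5 and HOX20 kept their direction on each of their 2 probe sets. HOX16 did so in B10301 (-0.16 and -0.33) but not in B10201 (0.10 and -0.04).

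For 13 of the genes, on 17 probe sets, the B10301 signal came from the stretch of the table where values stand 1 row away from their probe set. OSH45 read 10.27 as deposited and 11.93 once moved, next to 11.85 in the control and 11.91 in B10201. SPL6 read 5.92 as deposited and 9.89 moved, next to 9.97 and 9.81. SPL11 of chromosome 12 read 13.19 and 12.04, next to 12.74 and 12.04, so its lower signal in B10301 rests on that correction. SPL7, GRF3 and HOX19 lie outside the stretches.

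Among other genes that act with these families, the lists were small. Of the gibberellin and cytokinin enzymes tied to KNOX and GRF proteins, 6 of 7 on the array were measured, 3 higher and 2 lower in both lines. The cytokinin oxidases CKX4, CKX5 and CKX3, which break cytokinin down, were the higher ones, with CKX4 at log2 ratios of 0.99 and 0.87 and an unadjusted limma p that was the only one of the list under 0.05. The gibberellin synthesis gene GA20OX3 (-0.35 and -0.90) and CKX11 (-2.10 and -0.67) were lower.

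Of the strigolactone and tillering genes, 4 of 6 were measured, 1 higher and 1 lower in both lines. The strigolactone receptor D14 had log2 ratios of -0.25 and -0.33, and D17 had 0.08 and 0.74 with its control below the floor. TAC1 (-0.33 and 0.95) and D3 (0.03 and -0.08) had the control between the lines. Of the panicle and grain size genes, GW2, a ubiquitin ligase that limits grain width, was the 1 of 2 measured, at -0.64 and -0.48. The BELL list matched no gene. Of other leaf growth regulators, 19 of 27 were measured, 6 higher and 6 lower in both lines, with 3 higher and 2 lower at an unadjusted limma p under 0.05 (26.3%, beside 20.2% of all genes). Their list had AS2 (1.82 and 1.70, with its control below the floor and on an x_at probe set) as its member farthest from the control. The TCP factors PCF5 (0.74 and 0.74), PCF7 (0.62 and 0.54) and PCF8 (0.41 and 0.54, x_at) were higher. Of these, PCF7 and PCF8 had an unadjusted limma p under 0.05. PCF2 was split (0.76 and -0.23) and PCF1 (-0.86 and -0.35) was lower. Of the epidermal homeodomain genes, Roc4 (0.65 and 0.82) was higher and Roc2 (-0.41 and -0.55) lower. Roc1, Roc5 and Roc6 had the control between the lines. CR4 (0.77 and 0.42) was also higher. No gene of these lists was called by limma.

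Markers of leaf cell types and of other tissues were read beside these values, and their part in them was not tested. Green leaf genes had high control signals, such as rbcS at 15.09, with 5 of 9 higher in both lines and 2 lower, and their summed linear signal ranged from 227368 to 284830 over the arrays. The pattern also took in RCAR5, an abscisic acid receptor. Of markers of dividing cells, 19 of 31 on the array were measured, 6 higher and 10 lower in both lines, with summed signals of 38937 (control), 31193 (B10201) and 31893 (B10301). These linear sums rest mostly on bright histone genes, with control log2 signals from 12.04 to 13.69. Of those, H2B.5 (-0.46 and -0.45), H2B.6 (-0.86 and -0.38) and H2B.7 (-0.33 and -0.56, x_at) were lower, and H2B.11 (0.15 and 0.09) was higher. The less bright histone gene H2B.10 (-0.80 and -1.58) and the cyclin CYCA3-2 (-1.18 and -0.75) were lower. The cyclin CYCD4-1 (1.49 and 0.82, control below the floor) was higher.

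Young leaf and vascular markers were measured for 7 of 11, with 3 higher and 2 lower in both lines and summed signals of 5032 (control), 5894 (B10201) and 5878 (B10301). The higher ones were the secondary wall synthases CESA4, CESA7 and CESA9. Of the young leaf genes, OsYAB5 (-0.26 and -0.14) and OsYAB2 (-0.28 and -0.09) were lower, and OsYAB1 and NAL1 had the control between the lines. All of these young leaf genes are also counted among the other leaf growth regulators above, so the lists overlap. Floral and inflorescence markers were measured for 6 of 19, with summed signals from 3414 to 4051, and MADS18 (-0.77 and -0.69) was the lower one with an unadjusted limma p under 0.05. Seed markers were measured for 3 of 10, 1 higher in both lines, and root markers for 4 of 6, 2 higher and 2 lower. The lower root markers were OsSCR1 (-1.24 and -1.42) and NRT2.3 (-1.70 and -0.96, x_at). The higher ones were Lsi1 (0.44 and 0.41) and NRT2.2 (0.60 and 0.57, x_at). Summed root signals were 1237 (control), 1359 (B10201) and 1352 (B10301).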

How the data were processed

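The values as deposited are log2 signals. MAS5 is the tool named in the submitters' processing notes for the authors' step from scan to signal; its version, scaling target and detection calls are not given in the sources used here. Trimmed means of linear signal lay between 497.4 and 497.5 on the arrays, and no further normalization was applied. In B10301, rows 24427 to 31143 and 53064 to 54051 took the value 1 row above, which raised the correlation with the mean of the other arrays from 0.397 to 0.939 and from 0.051 to 0.823. The floor was the median of all signals (45.4 in linear signal), and 26475 of 57194 probe sets had a mean above it.

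Probe sets were named through the platform annotation and the gene table of assembly ASM3414082v1: 22436 were listed with 1 gene, 95 with several, which were left unnamed, and 34663 with none. A gene was represented by its brightest probe set. Of the 79 probe sets of the genes described, 42 were kept. HD-Zip and KNOX classes and miR156 sites were assigned from general knowledge, since no sequences were used here.

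The test was limma 3.58.1 (R 4.3.3) on the log2 signals of the 3 arrays, with an intensity trend and a two-sided p. The 2 lines leave 1 residual degree of freedom. Calls were made at a Benjamini-Hochberg threshold of 0.05 over all kept probe sets. The single control array is taken to have the spread of the lines. An exact permutation test of 1 array against 2 cannot give a p under 0.33. The script was tested on simulated data. Nothing in the labels says the samples were replicated beyond 1 array each, so p-values measure only the spread between these samples, and the number of arrays limits precision. Other steps used Python 3.11.15, numpy 2.4.6, scipy 1.17.1, pandas 2.3.3 and matplotlib 3.10.9.

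The set of genes is defined by symbols alone, but it, the lists and the rules for naming were proposed with earlier results of these data known. Named were genes with a 2-fold difference shared by the lines, per family up to 3 more in each direction, the 5 that differed most between the lines, and genes known from rice genetics whatever their values, of which WOX3 matched no gene; in effect nearly all measured genes are named. HOX1A, with a letter after its number, was not taken. The planned check of protein domains was not run.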

Additional observations from a re-analysis of the deposited data

How the results depend on the processing

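Of the genes described, limma called 0 under each alternative that has a test (leaving a line out has none), with 4 to 12 at an unadjusted p under 0.05. Over all probe sets it called 0 except without floor and filter (128), with robust moderation (52) and with the low values of kept probe sets left as they were (85). The counts of 2-fold differences followed the floor: 6 higher and 1 lower with it at the 25th percentile (HOX21, HOX29 and WOX11 added above, WOX6 below), 0 higher at the 75th, and 7 higher and 4 lower without one (OSH71 added above, HOX12, OSH6 and WOX10 below), all from signals that the main floor treats as unmeasured. The shares of all genes, higher and lower, were 4.44% and 3.70% at the 25th percentile, 0.97% and 1.83% at the 75th, and 5.77% and 4.54% without a floor. Without x_at and s_at probe sets HOX19 was lost and SPL4 became the 1 gene lower. Over all genes, centring moved the median log2 ratio from -0.02 to -0.16.

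Family medians of the mean log2 ratio moved as follows. SPL (-0.17) was -0.31 with centred arrays, -0.34 with probe sets averaged or without x_at and s_at, -0.15 without a floor, -0.11 as deposited and -0.12 without the spotted leaf genes, the last an alternative chosen after seeing the data. GRF (-0.09) was -0.24 centred, -0.16 with quantile normalization, -0.12, -0.18 and -0.15 with the 25th percentile, 75th percentile and no floor, and -0.064 to -0.048 with either line left out. HOX (0.13) was -0.012 centred, and 0.019 at the 75th percentile floor or without x_at and s_at. WOX (-0.05) was 0.50, 0.29 and 0.36 with those 3 floors. OSH (0.07) was -0.079 centred, 0.40 and 0.20 with the 25th percentile and no floor, and -0.76 as deposited. All genes described (-0.06) were at -0.20 centred, -0.12 without x_at and s_at, and -0.0093 to 0.059 with either line left out. The cause of these moves was not tested, except that a lower floor admits more genes.

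Of 465 values of single genes under alternatives, 451 kept their sign; 11 genes changed it at least once, among them OSH45, HOX13 and HOX15 when centred and SPL4 and HOX7 with their probe sets averaged. Including HOX1A or not raising kept values to the floor moved no family median beyond the spread of the lines and no 2-fold count of the genes described; the latter took those at an unadjusted p under 0.05 from 9 to 11. Leaving the stretches out also changed no 2-fold count, and no median of a family still measured beyond that spread, but cut the measured genes from 35 to 30, without HOX5, HOX16, SPL6, SPL11 of chromosome 12 and OSH45, so the OSH median had no value. The alternative that keeps only proteins with the family's domain was not run. No paired analysis was possible because the labels give no replicate numbers and there is 1 control array.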
